A study of Mus musculus with 6 samples.

Results

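The 9 genes described here serve the synthesis, modification or activation of fatty acids, as enzymes or, for Srebf1, as a regulator: Fasn, Acaca, Acly, Scd1, Scd2, Elovl6, Srebf1, Me1 and Acsl1. They were chosen by symbol for their part in fatty acid synthesis and selected on a measured value, the lower Fasn level in the marrow of mice without nuclear myosin 1 (NM1 KO), so that the pathway could be looked at beside Fasn. All 9 were found among the 46603 genes of the count tables, and all 9 stayed among the 15069 genes with enough counts to be tested. Since the difference between the genotypes led to the choice, the values of that comparison are descriptions of these genes, and their p-values are not independent evidence.

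The libraries come from unsorted bone marrow of C57/Bl6 animals at 8 months of age. There were 3 NM1 KO mice, which lack nuclear myosin 1, and 3 wild type mice (NM1 WT), with 1 mouse per library. The Myo1c gene gives rise to this protein, one of several isoforms of a class I myosin. Since the marrow, spun out of femurs and tibiae, was used whole, fewer cells of a type and less RNA per cell cannot be told apart. The study's title names platelet activation and the immune response, and the only comparison its design holds is NM1 KO against NM1 WT.

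The NM1 KO libraries held 21101616 to 22618802 counts and the NM1 WT libraries fewer, from 15145052 to 17580660. NM1 WT 2 stood apart from its group: across genes its log2 CPM correlated at 0.9688 with NM1 KO 1 and at 0.9573 and 0.9568 with NM1 WT 1 and NM1 WT 3. Levels are given as CPM, counts scaled to library size with TMM factors, where 1 CPM equals 14.7 to 23.0 counts. Myo1c averaged 64.2 ± 8.28 CPM in NM1 KO against 102 ± 12.4 CPM in NM1 WT (SD, n = 3), and since all Myo1c isoforms are added up in this count, it does not check the loss of the nuclear form. Transcripts of the Y chromosome were present in NM1 KO 1, NM1 KO 2 and NM1 WT 2 and had 0 counts in the other 3 libraries for Ddx3y, Uty, Kdm5d and Eif2s3y. Xist, which female cells express, had 0.609, 0.276 and 1.16 CPM in NM1 KO 1, NM1 KO 2 and NM1 WT 2. It had 269, 281 and 300 CPM in NM1 KO 3, NM1 WT 1 and NM1 WT 3. By these transcripts NM1 KO 1, NM1 KO 2 and NM1 WT 2 read as male and the others as female, so sex was not balanced between the genotypes. Marrow cell markers were present in every library: the summed level of 14 erythroid markers was at least 7529 CPM, of 20 neutrophil markers at least 40491 CPM and of 12 B cell markers at least 818 CPM.

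Fatty acids are built in the cytosol from acetyl-CoA. ATP citrate lyase (Acly) cuts citrate to acetyl-CoA, acetyl-CoA carboxylase (Acaca) turns acetyl-CoA into malonyl-CoA, and fatty acid synthase (Fasn) joins these units into palmitate with electrons from NADPH, part of which malic enzyme (Me1) supplies. Elovl6 lengthens palmitate, the stearoyl-CoA desaturases Scd1 and Scd2 put in a double bond, and Acsl1 couples free fatty acids to coenzyme A. Srebf1 encodes SREBP-1, the transcription factor best known for driving these enzymes, and in marrow fatty acids serve both the membranes of dividing blood cell precursors and the fat stores of adipocytes.

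The stretches before the transcription start of 7 of the 9 genes were taken from RefSeq (GRCm38.p6), as 11 windows of 250 bases, since some genes have several starts; Scd1 and Scd2 were not matched. Each window was searched on both strands for a sterol element bound by SREBP (TCACNCCAC), the CCAAT box bound by NF-Y (CCAAT), the GC box bound by Sp1 (GGGCGG) and an E-box (CACGTG). The E-box reads the same on both strands, and matches of different motifs can overlap. Shown here, with matches in capitals and each written 5′ to 3′ on its gene's strand, are the windows of Fasn, the gene that was lower in NM1 KO, and of Acly and Acsl1, which differ from it in the motifs they hold.
Fasn, chr11:120824548-120824797, minus strand: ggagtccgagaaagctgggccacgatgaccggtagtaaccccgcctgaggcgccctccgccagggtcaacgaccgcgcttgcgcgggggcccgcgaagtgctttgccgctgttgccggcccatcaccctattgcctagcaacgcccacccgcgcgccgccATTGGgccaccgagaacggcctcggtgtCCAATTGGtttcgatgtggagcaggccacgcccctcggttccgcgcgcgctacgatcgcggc
Acly, chr11:100528001-100528250, minus strand: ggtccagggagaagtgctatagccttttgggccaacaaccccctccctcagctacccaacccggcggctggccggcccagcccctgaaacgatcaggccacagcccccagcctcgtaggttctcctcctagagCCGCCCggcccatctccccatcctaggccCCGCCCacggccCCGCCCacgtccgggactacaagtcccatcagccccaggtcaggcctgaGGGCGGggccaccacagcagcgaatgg
Acsl1, inner start, chr8:46490716-46490965, plus strand: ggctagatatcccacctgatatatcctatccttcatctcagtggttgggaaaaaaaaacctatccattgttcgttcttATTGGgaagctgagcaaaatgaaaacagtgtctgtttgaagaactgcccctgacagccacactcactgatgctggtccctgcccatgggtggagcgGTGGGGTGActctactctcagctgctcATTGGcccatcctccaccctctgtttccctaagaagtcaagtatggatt

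The Fasn window held 3 CCAAT matches, of which 2 overlap on opposite strands in the run CCAATTGG, and none of the other 3 motifs. The Acly window held 4 GC box matches and no CCAAT match. The window of the inner Acsl1 start held the only sterol element among the 11 windows, beside 2 CCAAT matches, while its outer start held 4 GC box matches. CCAAT occurred in 5 of the 11 windows and the GC box in 5 of 11, against 33.8% and 32.7% of all 32851 windows of this length. The sterol element occurred in 1.05% of all windows and the E-box in 6.02%, and no window of these genes held the E-box. These matches describe letters within 250 bases of a start and nothing beyond them.

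Fasn was the only one of the 9 genes past the threshold, an adjusted p under 0.05 over all tested genes in edgeR's quasi-likelihood test, against 0.776% of all tested genes called in either direction and 0.186% called lower. It had 50.3, 42.9 and 49.8 CPM in NM1 KO 1 to 3 and 89.7, 71.6 and 74.9 CPM in NM1 WT 1 to 3. Every NM1 KO library lay below every NM1 WT library, and NM1 WT 1 was the highest. The means were 47.7 ± 4.14 CPM in NM1 KO against 78.7 ± 9.61 CPM in NM1 WT (SD, n = 3), a log2 fold change of -0.72 (SE 0.14 and adjusted p = 0.0396, edgeR), or 0.606 times the NM1 WT level. The call ended without NM1 KO 1 (adjusted p = 0.065), NM1 KO 2 (0.162), NM1 KO 3 (0.0601), NM1 WT 1 (0.216) or NM1 WT 3 (0.0862), with limma-voom (0.0621) and when the presence of Y-linked transcripts entered as a term (0.0772), and it held without NM1 WT 2 (0.0358). The log2 fold change stayed between -0.78 and -0.62 over all 20 alternatives.

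**Figure D1:**
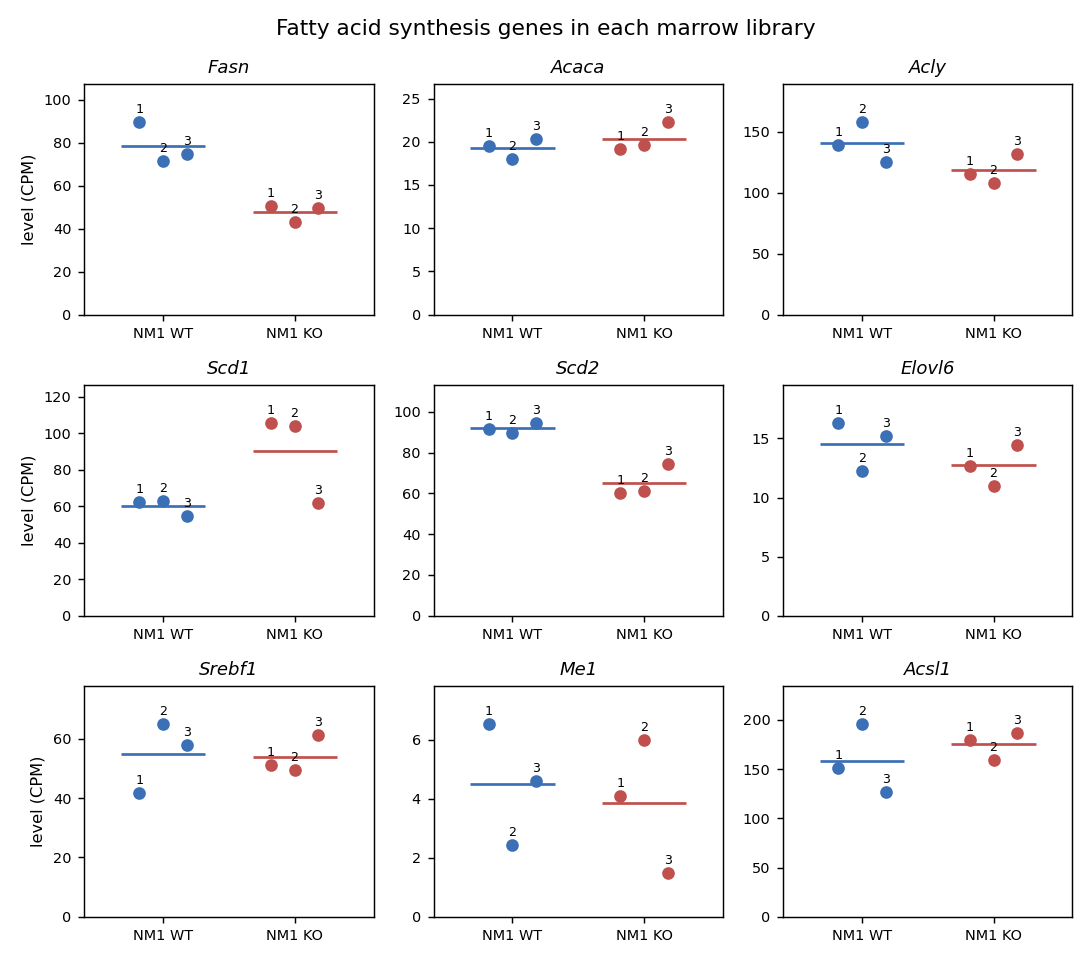
Level in CPM (vertical axis, from 0) of each of the 9 genes in the 3 NM1 WT and 3 NM1 KO libraries; points are libraries with their replicate number, and lines are group means. Fasn and Scd2 separate the genotypes downwards, Scd1 is high in NM1 KO 1 and NM1 KO 2 alone, and the other 6 genes overlap.

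The genes that act before Fasn did not follow it past the threshold. Acly had 115, 108 and 132 CPM in NM1 KO 1 to 3 and 139, 158 and 125 CPM in NM1 WT 1 to 3. NM1 KO 3 lay above NM1 WT 3, so the genotypes overlapped, and the log2 fold change was -0.25 (SE 0.13 and adjusted p = 0.377, edgeR). Acaca had 19.1, 19.6 and 22.3 CPM in NM1 KO 1 to 3 and 19.5, 17.97 and 20.3 CPM in NM1 WT 1 to 3. The highest Acaca value was in an NM1 KO library and the lowest in an NM1 WT library, with a log2 fold change of 0.08 (SE 0.16 and adjusted p = 0.857, edgeR). The ratio of Fasn to Acaca, as CPM over CPM, averaged 2.35 ± 0.242 in NM1 KO against 4.09 ± 0.454 in NM1 WT (SD, n = 3). With Acaca nearly level, this ratio restates the lower Fasn value that led to the choice of genes, and it was not tested. Of the 50-base windows in Acaca transcripts, 30.4% also occur in another annotated gene, mostly Gm5182, so its count is less certain than that of Fasn or Acly, for which no window is shared.

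Me1 was the lowest of the 9 genes in CPM and the most variable. It had 4.09, 5.99 and 1.50 CPM in NM1 KO 1 to 3 and 6.52, 2.43 and 4.59 CPM in NM1 WT 1 to 3. The genotypes overlapped throughout, and the spread within each, a coefficient of variation of 58.4% in NM1 KO and 45.2% in NM1 WT, was the widest of the 9 genes. Its log2 fold change of -0.22 (SE 0.51 and adjusted p = 0.875, edgeR) had the largest SE of the 9 genes. Of the 50-base windows in Me1 transcripts, 28.3% also occur elsewhere, mostly in Gm7049.

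The desaturases differed in sign, and neither passed the threshold. Scd2, the form found in most tissues, had 60.1, 61.4 and 74.5 CPM in NM1 KO 1 to 3 and 91.7, 89.5 and 94.4 CPM in NM1 WT 1 to 3. The highest NM1 KO value of Scd2 lay under the lowest NM1 WT value, and with a log2 fold change of -0.49 and an SE of 0.13 the gene did not pass (adjusted p = 0.101, edgeR). Scd1, the form typical of liver and fat, had 106, 104 and 61.9 CPM in NM1 KO 1 to 3 and 62.4, 63.0 and 54.6 CPM in NM1 WT 1 to 3. NM1 KO 1 and NM1 KO 2 stood far above the other 4 libraries, and NM1 KO 3 lay within the NM1 WT range. The log2 fold change of Scd1 was 0.59 (SE 0.19 and adjusted p = 0.151, edgeR), and without NM1 KO 3 it was 0.80 and passed (adjusted p = 0.0245). Without NM1 WT 2 the log2 fold changes were -0.51 for Scd2 (adjusted p = 0.0738, edgeR) and 0.63 for Scd1 (adjusted p = 0.128, edgeR). Both libraries high in Scd1 carried Y-linked transcripts, and so did NM1 WT 2, which was not high, while NM1 KO 3 carried none. With the presence of Y-linked transcripts as a term, the log2 fold change of Scd1 was 0.41 (adjusted p = 0.311, edgeR). This was its smallest value over all 20 alternatives.

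Scd1 and Scd2 both lie on chromosome 19 (GRCm38), Scd2 at 44293674 to 44306864 and Scd1 at 44394455 to 44407879. Their summed level was 156 ± 16.9 CPM in NM1 KO against 152 ± 2.60 CPM in NM1 WT (SD, n = 3), with overlapping values. The share of Scd1 in that sum was 63.7%, 62.9% and 45.4% in NM1 KO 1 to 3 and 40.5%, 41.3% and 36.6% in NM1 WT 1 to 3. Every NM1 KO share was above every NM1 WT share, though this ratio was formed after the values were seen and was not tested. Reads shared between the copies touch little of either gene: 4.56% of the 50-base windows of Scd1 and 3.97% of those of Scd2 occur in another gene.

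The remaining enzymes showed no separation. Elovl6 had 12.7, 11.01 and 14.4 CPM in NM1 KO 1 to 3 and 16.3, 12.2 and 15.2 CPM in NM1 WT 1 to 3. NM1 WT 2 fell among the NM1 KO libraries, and the log2 fold change was -0.20 (SE 0.21 and adjusted p = 0.688, edgeR). Acsl1 had 180, 159 and 187 CPM in NM1 KO 1 to 3 and 152, 195 and 127 CPM in NM1 WT 1 to 3. NM1 WT libraries held both the highest and the lowest Acsl1 value, and the log2 fold change was 0.15 (SE 0.16 and adjusted p = 0.688, edgeR).

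Srebf1, the regulator, had 51.0, 49.4 and 61.1 CPM in NM1 KO 1 to 3 and 41.7, 64.8 and 57.9 CPM in NM1 WT 1 to 3. The NM1 KO values all lay inside the NM1 WT range. The means were 53.8 ± 6.36 and 54.8 ± 11.9 CPM (SD, n = 3), a log2 fold change of -0.03 (SE 0.17 and adjusted p = 0.959, edgeR), whose sign turned with total-count scaling (0.01) and without single libraries. The count adds up the SREBP-1a and SREBP-1c transcripts, and 1.33% of its 50-base windows are shared, mostly with Rai1, which overlaps its end on the opposite strand.

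**Figure D2:**
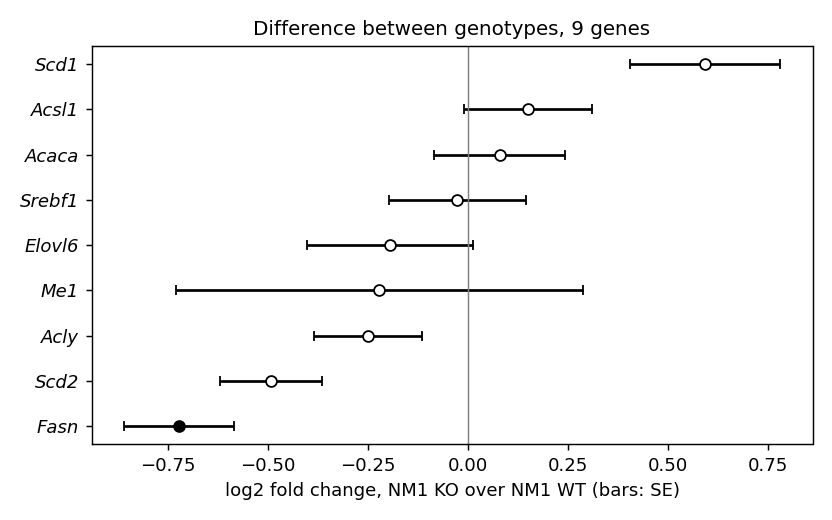
Log2 fold change of NM1 KO over NM1 WT (horizontal axis) for each of the 9 genes, with bars for the SE; the filled point passed an adjusted p under 0.05 over all tested genes and open points did not. Values run from -0.72 for Fasn to 0.59 for Scd1.

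Read as a group, 1 of the 9 genes was lower, 0 were higher and 8 did not pass in edgeR's quasi-likelihood test. At an unadjusted p under 0.05 there were 2 lower (Fasn and Scd2) and 1 higher (Scd1). DESeq2 called 2 lower, against 5.27% of all tested genes in either direction. EdgeR's likelihood ratio test called 1 lower, against 3.59%, and limma-voom called 0, against 0.246%, and these 3 tests called 0 higher. An unadjusted p under 0.05 was reached by 16.8% of all tested genes, 1272 of 15069 higher and 1253 lower. Over all tested genes DESeq2 called 400 higher and 394 lower, the likelihood ratio test 298 and 243, and limma-voom 23 and 14. These counts are the background for the lists below. The median log2 fold change was -0.20 over the 9 genes and 0.00185 over all tested genes, and 6 of the 9 were negative. Values did not overlap between genotypes for 2 of the 9 genes, both lower, against 20.5% of all tested genes in either direction and 9.75% lower. The summed level of the 9 genes was 588 ± 22.9 CPM in NM1 KO against 622 ± 50.7 CPM in NM1 WT (SD, n = 3), with overlapping values.

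Of these 9 genes, 4 lie on chromosome 11 (GRCm38), which also carries Myo1c at 75650504 to 75673910. Acaca at 84129672 to 84401651 is 8.46 Mb away and Srebf1 at 60199089 to 60222581 is 15.4 Mb away, and these were the pair with the smallest differences between genotypes. Acly is 24.8 Mb away and Fasn, at 120805846 to 120824547, 45.1 Mb away. Leaving out all genes within 20 Mb of Myo1c left the Fasn call in place (adjusted p = 0.0445, edgeR). Without that stretch 14564 genes were tested, with 77 called higher and 18 lower, against 89 and 28 of all 15069. Fasn lies outside that stretch and its own counts stayed the same, so any part of its position in the difference was not tested.

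Levels of different genes were compared as CPM per kb of merged exons. In NM1 WT, Acly was highest with 26.7 ± 3.10 CPM per kb, followed by Scd2 (16.8 ± 0.449), Acsl1 (15.1 ± 3.32), Scd1 (12.3 ± 0.957), Srebf1 (9.72 ± 2.11) and Fasn (7.19 ± 0.878). Elovl6 with 2.27 ± 0.327, Me1 with 1.17 ± 0.531 and Acaca with 1.13 ± 0.0689 CPM per kb closed the order (SD, n = 3). Neighbours in this order overlapped from Scd2 down to Fasn, and Me1 overlapped Acaca, while Acly stood above Scd2, Fasn above Elovl6 and Elovl6 above Me1 in all 3 NM1 WT libraries. In NM1 KO, Scd1 was the second (18.5 ± 5.07 CPM per kb) and Scd2 the fourth (12.0 ± 1.46), and Fasn kept the sixth place with 4.36 ± 0.378. Over all 6 libraries Acly lay above 85.7% of tested genes by this measure, Fasn above 56.8% and Acaca above 24.6%.

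**Figure D3:**
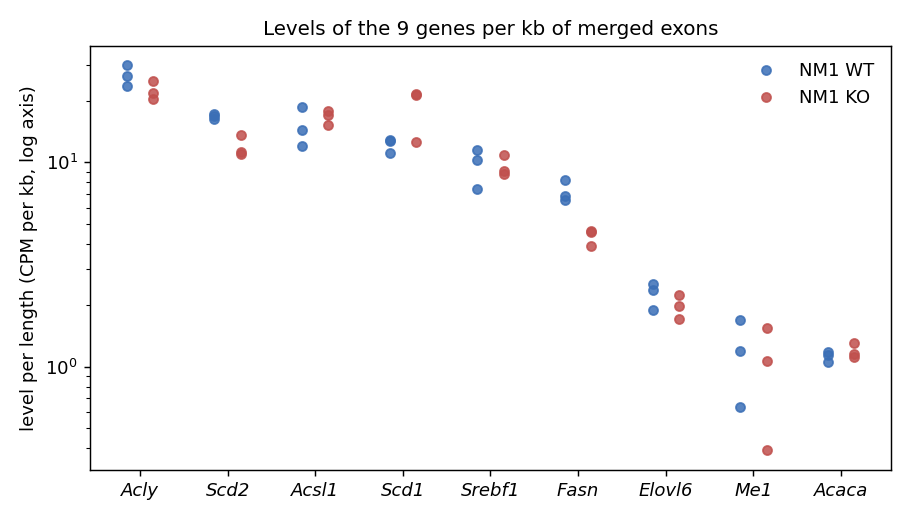
Level per length in CPM per kb of merged exons (vertical log axis) for the 9 genes, ordered by their NM1 WT mean; points are libraries. Acly is highest and Acaca, Me1 and Elovl6 are lowest in both genotypes, while Scd1 and Scd2 change places.

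The genes with profiles nearest to Fasn were found by the root mean square difference of log2 CPM over the 6 libraries, after each profile was centred on its mean. Among 8818 protein-coding genes of at least 10 CPM the median distance was 0.426, and the 5 nearest were Mapk3 (0.071), Mfap3 (0.0787), Coro1a (0.0798), Smg9 (0.081) and Pstpip1 (0.081). Coro1a, the leukocyte actin-binding coronin 1A, averaged 1433 ± 229 CPM in NM1 KO against 2261 ± 171 CPM in NM1 WT (SD, n = 3). Mapk3, the kinase ERK1, had 193 ± 27.9 and 298 ± 42.4 CPM. Of these 5, Pstpip1 passed the threshold, with a log2 fold change of -0.69 (SE 0.14 and adjusted p = 0.0498, edgeR). Within the pathway, Scd2 was nearest to Fasn with a distance of 0.178, closer than all but 2.17% of the candidates, then Elovl6 with 0.28 and Acly with 0.288, while Scd1 with 0.707 and Me1 with 0.731 were farthest. Of the candidates, 12.8% were nearer to Fasn than Elovl6 and 14.3% nearer than Acly. For Acaca, Srebf1, Acsl1, Scd1 and Me1 the shares were 47.1%, 62%, 71.1%, 95.1% and 95.9%. The distances use the same 6 libraries as the comparison of genotypes and do not add to it.

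None of the other enzymes of fatty acid synthesis, elongation and desaturation passed in edgeR's quasi-likelihood test, with 0 of 23 tested, a median log2 fold change of -0.03 and 11 positive. At an unadjusted p under 0.05 there were 1 higher and 2 lower, and DESeq2 called 2 lower, the likelihood ratio test 1 lower and limma-voom 0. Tecr, the reductase of the last elongation step, had 203, 185 and 221 CPM in NM1 KO 1 to 3 and 331, 266 and 277 CPM in NM1 WT 1 to 3. The genotypes did not overlap for Tecr, and its log2 fold change was -0.52 (SE 0.13 and adjusted p = 0.0949, edgeR). Hacd4, a dehydratase of the same cycle, had a log2 fold change of -0.58 (SE 0.18 and adjusted p = 0.147) with overlapping values. Slc25a1, the carrier that brings citrate out of mitochondria, averaged 41.7 ± 8.04 CPM in NM1 KO against 47.3 ± 4.55 CPM in NM1 WT, and Acacb, the mitochondrial relative of Acaca, was near 1 CPM in both. Summed, the 23 genes had 813 to 853 CPM in NM1 KO against 923 to 960 CPM in NM1 WT, without overlap. Tecr alone made up 203 and 291 CPM of these sums on average.

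Of 14 genes that supply NADPH and citrate, 0 passed, with a median of -0.11, 10 negative and 1 lower at an unadjusted p under 0.05. DESeq2 called 1 lower, and limma-voom and the likelihood ratio test called 0. Pgd, which makes NADPH in the pentose phosphate pathway, had 514, 368 and 510 CPM in NM1 KO 1 to 3 and 713, 713 and 566 CPM in NM1 WT 1 to 3, without overlap (log2 fold change -0.52, SE 0.16, adjusted p = 0.142, edgeR). G6pdx, the enzyme that opens that pathway, had a log2 fold change of -0.46 (SE 0.21 and adjusted p = 0.303), and Mthfd1, of folate metabolism, of 0.41 (SE 0.19 and adjusted p = 0.303).

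Of 24 regulators of lipogenic transcription, 0 passed, with a median of 0.04 and 2 higher at an unadjusted p under 0.05, and DESeq2, limma-voom and the likelihood ratio test called 0. Rnf139, a ubiquitin ligase that acts on SREBP processing, had a log2 fold change of 0.32 (SE 0.14 and adjusted p = 0.273, edgeR), and Prkaa2, a catalytic subunit of AMP-activated kinase, of 1.17 (SE 0.53 and adjusted p = 0.294) from 1.16 ± 0.702 CPM. Srebf2, which encodes the SREBP of cholesterol synthesis, averaged 109 ± 9.47 CPM in NM1 KO against 123 ± 22.2 CPM in NM1 WT. Insig1, which holds SREBPs in the endoplasmic reticulum and is itself a target of them, had 25.1 ± 3.96 and 30.7 ± 3.16 CPM (SD, n = 3), with overlapping values.

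Cholesterol synthesis and uptake, the other branch that SREBPs drive, had 0 of 22 genes past the threshold and a median of -0.14. Of the 22 genes, 17 were negative, against 7507 of all 15069 tested genes. With an unadjusted p under 0.05, 5 were lower and 0 higher, against 1253 and 1272 of all tested genes. DESeq2 called 1 lower, and limma-voom and the likelihood ratio test called 0. Mvd, mevalonate decarboxylase, averaged 16.7 ± 2.40 CPM in NM1 KO against 25.8 ± 3.17 CPM in NM1 WT (log2 fold change -0.62, SE 0.18, adjusted p = 0.122, edgeR). Msmo1, a sterol oxidase, had 31.1 ± 0.803 and 43.1 ± 4.36 CPM (-0.47, SE 0.14, adjusted p = 0.133). Values did not overlap for 6 of the 22 genes, all lower, against 9.75% of all tested genes lower. The summed level of the list was 466 to 544 CPM in NM1 KO against 546 to 566 CPM in NM1 WT.

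Of 19 acyl-CoA synthetases and fatty acid uptake genes, 0 passed, with a median of 0.16 and 3 higher and 2 lower at an unadjusted p under 0.05. DESeq2 called 2 higher, the likelihood ratio test 1 higher and limma-voom 0. Fabp4, which carries fatty acids in adipocytes and endothelium, measured 218, 312 and 120 CPM in NM1 KO 1 to 3 and 96.2, 58.9 and 99.7 CPM in NM1 WT 1 to 3 (log2 fold change 1.35, SE 0.30, adjusted p = 0.0565, edgeR). NM1 KO 2 was the highest and NM1 WT 2 the lowest. Cd36, a fatty acid receptor, averaged 170 ± 10.8 CPM in NM1 KO against 125 ± 3.88 CPM in NM1 WT (0.44, SE 0.12, adjusted p = 0.107). The summed level of the list was 843 to 1075 CPM in NM1 KO against 785 to 824 CPM in NM1 WT.

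Of 18 glycerolipid synthesis genes, 0 passed, with a median of -0.04 and 1 higher and 3 lower at an unadjusted p under 0.05. DESeq2 and the likelihood ratio test each called 1 higher and 1 lower, and limma-voom called 0. Plin3, a lipid droplet coat protein, had a log2 fold change of -0.55 (SE 0.13) and Lpcat1, a lysophospholipid acyltransferase, of 0.50 (SE 0.12), both with an adjusted p of 0.0848 in edgeR. Of 23 fatty acid oxidation genes, 0 passed, with a median of 0.08 and 1 higher and 2 lower at an unadjusted p under 0.05, and the other 3 tests called 0. Acaa1a, a peroxisomal thiolase, had a log2 fold change of -0.36 (SE 0.12 and adjusted p = 0.183) and Pdk4, a brake on pyruvate oxidation, of 1.65 (SE 0.58 and adjusted p = 0.185) from 0.887 ± 0.0626 CPM. Summed levels overlapped between genotypes for glycerolipid synthesis, fatty acid oxidation, NADPH and citrate supply, and the regulators.

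**Figure D4:**
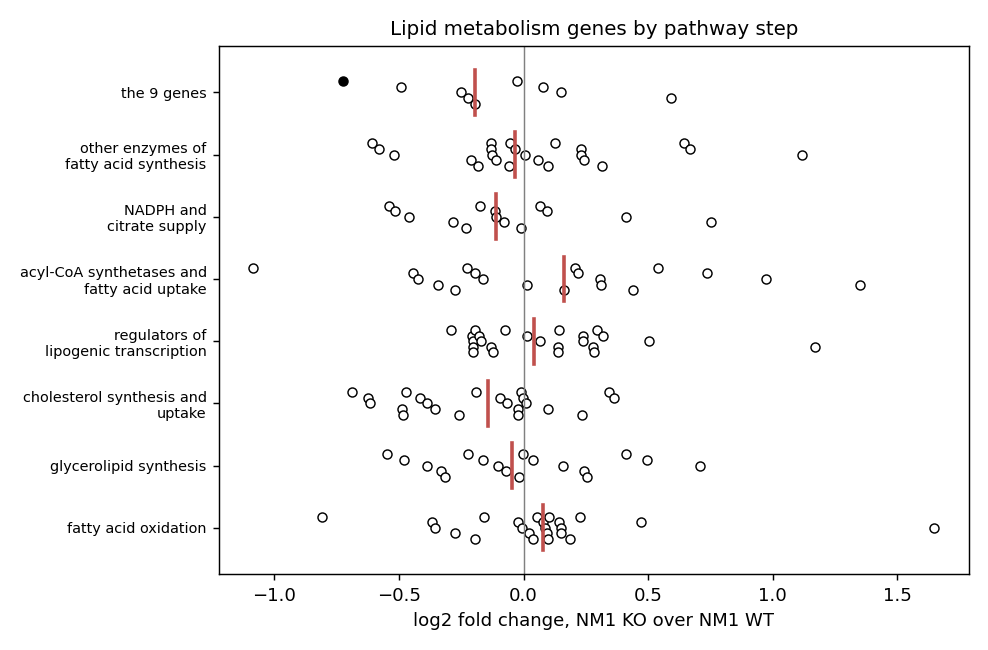
Log2 fold change of NM1 KO over NM1 WT (horizontal axis) of every tested gene in the 9 genes and 7 related lists; each point is a gene, filled where it passed an adjusted p under 0.05, and red lines are medians. Fasn is the only filled point, and list medians lie between -0.20 and 0.16.

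Some marker lists of the cell types in marrow had members past the threshold (eosinophil, platelet, stromal, adipocyte and macrophage) and others had none, and the part of these cells in the Fasn difference was not tested. For comparison, 0.591% of all tested genes were called higher and 0.186% lower. Of these 15069 genes, 1272 were higher and 1253 lower at an unadjusted p under 0.05. All 20 neutrophil markers were lower on average in NM1 KO, by a median log2 fold change of -0.47, with 0 past the threshold in edgeR (12 lower at an unadjusted p under 0.05, 9 lower with DESeq2, 3 with the likelihood ratio test and 0 with limma-voom). Their summed level was 40491 to 52771 CPM in NM1 KO against 52754 to 71859 CPM in NM1 WT. Of 10 eosinophil markers, 7 fell (also 7 with each of the other 3 tests), and their summed level was 716 to 1212 CPM in NM1 KO against 2079 to 3462 CPM in NM1 WT. Prg3, an eosinophil granule protein, dropped by 1.66 in log2 terms (SE 0.22 and adjusted p = 0.00815, edgeR). Of 16 monocyte and macrophage markers, 8 positive and 8 negative with a median of -0.02, 2 rose and 0 fell. At an unadjusted p under 0.05 there were 5 higher and 5 lower, DESeq2 called 5 higher and 1 lower, the likelihood ratio test 4 higher and limma-voom 0. Ly6c2, of inflammatory monocytes, was among those that did not pass, with a log2 fold change of -0.53 (SE 0.15 and adjusted p = 0.114, edgeR). The list had a summed level of 1739 to 2062 CPM in NM1 KO against 1733 to 2112 CPM in NM1 WT.

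Of 10 tested adipocyte markers, 2 rose, Car3, carbonic anhydrase 3 (from 1.14 ± 0.0495 to 13.2 ± 4.34 CPM), and Cfd, adipsin (from 1.31 ± 0.769 to 13.6 ± 6.54 CPM). At an unadjusted p under 0.05 there were 4 higher and 1 lower, DESeq2 and the likelihood ratio test each called 4 higher and limma-voom 1. Values did not overlap for 5 markers that were higher and 1 that was lower, against 10.8% and 9.75% of all tested genes. Among the higher ones, Adipoq had a log2 fold change of 1.02 (SE 0.27 and adjusted p = 0.108, edgeR). Cidec had one of 5.09 (SE 1.17 and adjusted p = 0.0743) from 0.0452 ± 0.0784 CPM, and neither passed. Of the 10 markers 3 were negative. The lower one without overlap was Lipe, hormone-sensitive lipase, with a log2 fold change of -0.50 that did not pass (SE 0.18 and adjusted p = 0.187, edgeR). The part of these markers in the values of Scd1 was not tested. The summed level of the list was 333 to 451 CPM in NM1 KO, highest in NM1 KO 2, and 281 to 353 CPM in NM1 WT. Of the defining markers that were not tested, Lep had 0 counts in all libraries, and Plin1 had 24 counts over the NM1 KO libraries and 2 over the NM1 WT libraries. Of 15 platelet and megakaryocyte markers 12 rose (13 with DESeq2, 13 with the likelihood ratio test and 6 with limma-voom), with a summed level of 2506 to 5136 CPM in NM1 KO against 1284 to 1662 CPM in NM1 WT. Of 15 stromal and endothelial markers 7 rose (10 with DESeq2, 9 with the likelihood ratio test and 2 with limma-voom), with 1397 to 2298 CPM in NM1 KO against 684 to 822 CPM in NM1 WT. Of 14 erythroid markers, all with a positive log2 fold change and a median of 0.34, 0 passed in edgeR (9 higher at an unadjusted p under 0.05, 3 with DESeq2, 0 with limma-voom and 0 with the likelihood ratio test). None of 12 B cell markers passed in edgeR, with a median of 0.16 and 3 higher at an unadjusted p under 0.05 (2 higher with DESeq2, 1 with the likelihood ratio test and 0 with limma-voom).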

How the data were processed

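The deposited files hold raw counts per Ensembl gene, made by the authors, per the submitters' processing notes, with HISAT2 2.0.4 and HTSeq (builds GRCm38 and mm10), beside Trimmomatic 0.36, SAMtools 0.1.19 and FastQC. For strand and annotation release HTSeq's settings were not given in the sources used here, so overlapping genes on opposite strands cannot be told apart. Low counts were nearly all even (2417 genes with a count of 2 and 6 with a count of 1 in NM1 KO 1), so both mates of a pair appear to have been counted. The main fit used the counts as deposited, and an alternative used halved counts.

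Of 46603 genes, 46091 matched GENCODE M21 (GRCm38). Genes were kept by filterByExpr (15069 genes, 99.9% of counts), scaled with TMM and compared with edgeR 4.0.16's quasi-likelihood test (R 4.3.3, genotype the only term, Benjamini-Hochberg over all tested genes, threshold 0.05). The SE is the log2 fold change divided by the root of its F statistic. The 9 genes and the lists were chosen with earlier results of these data known. Named are the 9 genes, Myo1c, up to 4 members of each list past the threshold or the 2 of smallest p where fewer than 2 passed, and the 5 profiles nearest to Fasn. G6pdx, Slc25a1, Acacb, Srebf2, Insig1, Lipe, Adipoq, Cidec, Lpl, Cebpa and Ly6c2 were named after their values were seen. Alternatives used DESeq2 1.42.0, limma 3.58.1, other scalings and filters, halved counts, a replicate block and each library left out. The fit was tested on simulated data.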

Additional observations from a re-analysis of the deposited data

How the results depend on the processing

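The number of genes called over all tested genes was 117. It was 1138 with no low-count filter, 794 with DESeq2, 541 with the likelihood ratio test, 207 without haemoglobin, immunoglobulin and mitochondrial genes, 201 with protein-coding genes alone, 37 with limma-voom and 60 with a term for Y-linked transcripts, and 26 to 344 with 1 library left out. The split of 89 higher to 28 lower turned without NM1 WT 2 (138 and 206) and was nearly even with DESeq2 (400 and 394), with no low-count filter (621 and 517), with the likelihood ratio test (298 and 243) and with the replicate block (229 and 192). Of the 9 genes, 1 was called lower. This count was 2 with no low-count filter and with DESeq2 (Scd2 at adjusted p = 0.0409 and 0.0218), 0 with the Y-linked term or limma-voom, and 0 to 1 with 1 library left out. The count called higher was 1 with no low-count filter (Scd1, adjusted p = 0.00326) and 0 to 1 with 1 library left out. With halved counts 159 of 13607 tested genes were called, and Fasn was called lower (adjusted p = 0.036, edgeR). With the replicate block 421 genes were called, 1 of the 9 was lower (Fasn, adjusted p = 0.0169) and 0 were higher. The deviations of same-numbered libraries correlated at 0.0636, 0.115 and 0.0609, so the numbers were not taken as pairs, though each library correlated best with its own number. Srebf1 turned sign with total-count scaling (0.0108) and over the fits with 1 library left out (-0.19 to 0.12), and Me1 over the latter (-0.68 to 0.16). The cause was not tested. The other 7 genes kept their direction in every alternative that held them. Acaca and Srebf1 have no value without genes within 20 Mb of Myo1c. With 3 mice per genotype, Scd1 (0.59, SE 0.19) and Scd2 (-0.49, SE 0.13) lay over 3 SEs from 0 and did not pass, so differences of that size could be missed.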
